A study of Mus musculus with 4 samples.

Results

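The transcript clusters of 2 duplicated mouse gene families, Tmem181 and Pisd, were examined on gene arrays of wild-type and Adar2 knockout brain. The probes laid out for 1 transcribed locus form a transcript cluster, which is the unit of measurement. Every row of the deposited table whose gene symbol begins with Tmem181 or with Pisd was taken, which gave 8 of 33793 clusters, 4 per family, with 7 distinct symbols because Tmem181b-ps names 2 clusters. By symbol, 2 of the 8 clusters belong to a gene that RefSeq holds as protein coding, Tmem181a and Pisd, and 6 to transcribed pseudogenes. The families were picked with their signals on these same arrays in view, so all levels and genotype differences of the 8 clusters are given as a description, without a test.

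Total RNA came from whole brains of adult female mice of strain 129SV, 2 wild type and 2 Adar2-/-, with 1 array for each sample. ADAR2, the product of Adarb1, edits adenosines of double-stranded RNA to inosine, and the arrays were run to find transcripts whose level differs without it. Per the methods of the study, both genotypes were siblings from heterozygous crosses and both carried the pre-edited Gria2 R/R allele, which rescues the knockout from early death. The labels do not say whether each array is a separate animal. All values are log2 signals. In whole-brain RNA, fewer cells of a type and less RNA per cell cannot be told apart.

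Pisd encodes phosphatidylserine decarboxylase, the enzyme of the inner mitochondrial membrane that makes phosphatidylethanolamine from phosphatidylserine. Tmem181a encodes a membrane protein of the GOLD-domain seven-helix family and was found in human cells as a host factor for a bacterial cytolethal distending toxin. A pseudogene is a copy of a gene that no longer encodes the full protein, and some copies are still transcribed. Near-identical copies that lie close together are prone to gain and loss of DNA, and a probe designed for 1 copy can also bind RNA of another. The arrays measured RNA, and the number of DNA copies of either family was not measured.

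The Tmem181 clusters lay within 385.5 kb on chromosome 17, interleaved with Dynlt1 genes, which encode a light chain of the dynein motor. The deposited table names no genome build, and its coordinates are given as deposited. To show how alike the repeated units are, the promoters of the Dynlt1 genes that RefSeq provides (assembly GRCm38.p6, 300 bases each) were aligned. Dynlt1c and Dynlt1f shared 192 aligned bases without a gap, of which 189, or 98.4%, were identical. The 30-base stretch with the most differing bases is shown 5′ to 3′ on each gene's own strand, with the 2 differing bases in capitals. It lies at chr17:6601551-6601580 on the plus strand for Dynlt1c and at chr17:6656030-6656059 on the minus strand for Dynlt1f.
Dynlt1c: ccaAatcccagagggctcagagacacacaC
Dynlt1f: ccaCatcccagagggctcagagacacacaT
Of the 7 member symbols, only Tmem181a and Pisd have a promoter in that table, so the pseudogenes are named without sequence.

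Adarb1, the targeted gene, had a signal of 10.50 and 10.45 on the wild-type arrays and of 9.16 and 8.96 on the knockout arrays. The difference was -1.42 (SE 0.12, limma p 2.57e-05, adjusted p 0.409), and 0.409 was the lowest limma adjusted p of all clusters. The median signal of the 4 arrays lay between 6.03 and 6.09. The 8 markers of neurons and glia had signals of 8.68 to 13.16, and their summed log2 signal was 15.03 to 15.09 on the 4 arrays. The 4 Y-linked clusters, of genes that female mice lack, had signals of 3.49 to 4.4. Markers of other tissues set single arrays apart. Of 7 salivary gland clusters 6 were highest in Adar2 knockout replicate 1, where their summed log2 signal was 12.92 against 7.95 to 8.0 on the others. All 5 olfactory bulb clusters were lowest in Adar2 knockout replicate 2, at a summed 9.80 against 10.20 to 10.41. Pituitary clusters summed to 11.28 and 10.55 in the knockout and to 8.97 and 8.65 in wild type. Of the 10, 5 were higher in both knockout arrays than in both wild-type arrays, against 17.7% of all clusters. The largest differences were those of Prl (4.12) and Gh (3.17). Choroid plexus clusters summed to between 12.93 and 13.29 and blood clusters to between 12.88 and 13.37, in both cases without a separation of the genotypes.

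The most uneven cluster of either family was Tmem181b-ps (transcript cluster 17340548, chromosome 17, 6439002 to 6490378, minus strand), called proximal here because a further cluster of that name lies at higher coordinates. The wild-type arrays read 5.95 (replicate 1) and 6.57 (replicate 2) on the log2 scale, followed by 6.61 in Adar2 knockout replicate 1 and 10.38 in Adar2 knockout replicate 2. The RefSeq gene of that name fills 23.3% of the span of the cluster, and Dynlt1b reaches into 2.92% of it. The span also lies within those of a Sytl3 cluster on the same strand and of an unnamed cluster on the other. These read 6.51 to 6.62 and 3.30 to 3.48 over the arrays. In proximal Tmem181b-ps a single knockout array stood apart, while the other knockout array lay 0.04 above the higher wild-type array. Adar2 knockout replicate 2 exceeded the mean of the other 3 arrays by 4.0, or 16.0-fold, and in no other of the 33793 clusters did it stand as far above the others. The knockout arrays differed from each other by 3.77, or 13.6-fold, a gap exceeded by 8 clusters in the whole table, and the wild-type arrays by 0.62.

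By genotype, the mean of proximal Tmem181b-ps was 6.26 ± 0.44 for wild type and 8.50 ± 2.67 for the knockout (SD, n = 2 each). The difference between genotypes, 2.24, was smaller than the gap within the knockout. Without Adar2 knockout replicate 2 it was 0.35, and without Adar2 knockout replicate 1 it was 4.12. The olfactory bulb markers were lowest on the same array on which this cluster was highest, and their part in the result was not tested. The salivary markers were high on the other knockout array.

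**Figure D1:**
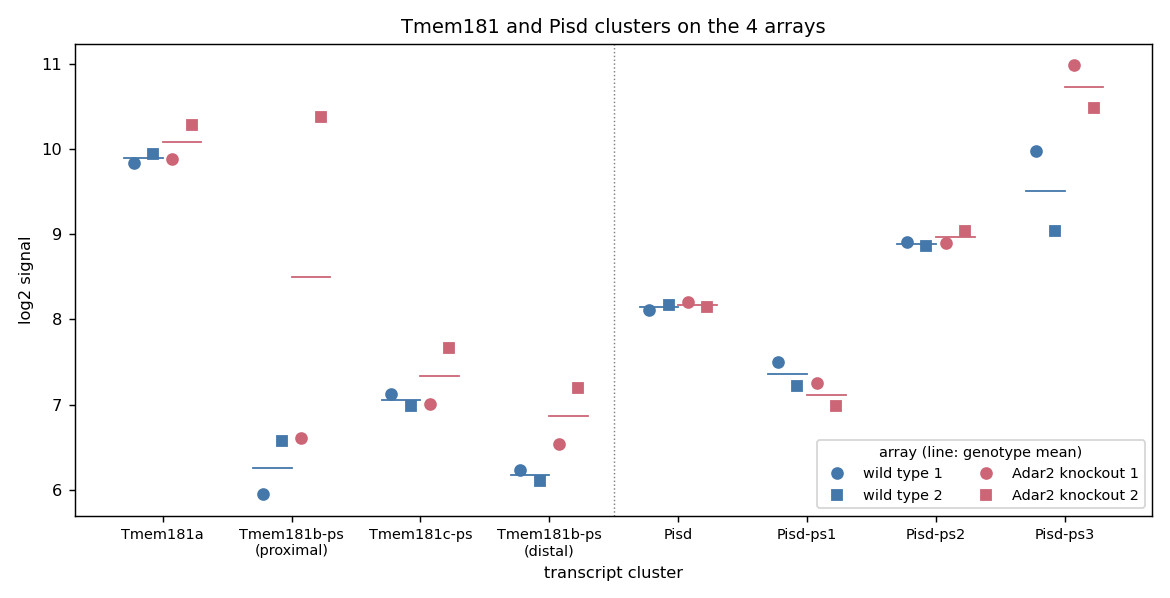
Log2 signal of the 4 Tmem181 clusters (left) and the 4 Pisd clusters (right) on each array, with wild type in blue, Adar2 knockout in red, replicate 1 as circles, replicate 2 as squares and the genotype mean as a line. Proximal Tmem181b-ps reached 10.38 in Adar2 knockout replicate 2 and stayed between 5.95 and 6.61 elsewhere, while Pisd-ps3 differed within both genotypes.

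The other 3 Tmem181 clusters were highest on the same array, by smaller amounts. The distal Tmem181b-ps cluster (17340599, chromosome 17, 6646606 to 6655939, minus strand) had 6.23 and 6.11 in wild type, 6.54 in Adar2 knockout replicate 1 and 7.19 in Adar2 knockout replicate 2. Both knockout arrays lay above both wild-type arrays, and the genotype difference was 0.70, from 6.17 ± 0.085 to 6.87 ± 0.46 (SD, n = 2 each). Without Adar2 knockout replicate 2 it was 0.37. The position of this cluster does not match its name, since RefSeq places Dynlt1f there, with 99.7% of that gene covered, and Tmem181b-ps elsewhere on the chromosome.

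Tmem181c-ps (17340584, chromosome 17, 6610103 to 6621334, minus strand) had 7.13 and 6.98 in wild type, then 7.01 and 7.66 on the knockout arrays. Only the second knockout array stood above wild type, so the groups overlapped. Tmem181a itself (17332893, chromosome 17, 6270475 to 6305783, plus strand) had 9.84 and 9.94 in wild type and 9.88 and 10.28 in the knockout, and its highest array was again Adar2 knockout replicate 2. The genotype differences of 0.28 for Tmem181c-ps and 0.19 for Tmem181a turned to -0.045 and -0.01 without Adar2 knockout replicate 2. That array exceeded the mean of the other 3 by 0.90 for distal Tmem181b-ps, 0.62 for Tmem181c-ps and 0.39 for Tmem181a, which is 1.86-fold, 1.54-fold and 1.31-fold.

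Adar2 knockout replicate 2 was therefore highest in 4 of 4 Tmem181 clusters, where it was highest in 24.5% of all clusters. Of the 4 Pisd clusters it was highest in 1, and Adar2 knockout replicate 1, which was highest in 24.9% of all clusters, in 2. Adar2 knockout replicate 2 was also highest in 5 of the 6 other clusters between the first and the last Tmem181 cluster, and in 4 of the 18 flanking clusters within 500 kb. Over the 6 inside, the excess of that array over the other 3 ran from 0.067 to 0.35, with a median of 0.158. It was 0.067 for Sytl3, and 0.113 for an unnamed cluster that read 3.30 to 3.48, below the Y-linked clusters. Among those inside were the 3 clusters named for Dynlt1 genes. Dynlt1b had 10.13 and 10.25 in wild type and 10.30 and 10.48 in the knockout. The Dynlt1f cluster that lies at RefSeq Dynlt1a had 10.53 and 10.67 in wild type and 10.68 and 10.83 in the knockout. The Dynlt1f cluster that lies at RefSeq Dynlt1c had 9.09 and 9.18 in wild type and 9.24 and 9.52 in the knockout.

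Both knockout arrays lay above both wild-type arrays in each of these Dynlt1 clusters, by narrow margins, as they did in 17.7% of all clusters. The genotype differences of the 3 Dynlt1 clusters were 0.20, 0.16 and 0.25, with limma adjusted p of 0.854, 0.873 and 0.846, so none passed. All 3 are marked in the table as having probes that can cross-hybridize (crosshyb type 3), as is Tmem181a, while the 3 clusters of the stretch named for Tmem181 pseudogenes are marked as unique (type 1). The excess of Adar2 knockout replicate 2 over the other 3 arrays had a median of 0.76 in the 4 clusters named Tmem181, 0.25 in the 3 named Dynlt1 and 0.002 in the flanking clusters. It ran from 0.393 to 4.003 in the clusters named Tmem181, 0.203 to 0.35 in those named Dynlt1 and -0.417 to 0.44 in the flanks. Flanking 3300005D01Rik, at 0.44, exceeded Tmem181a, and flanking Gm1604b, at 0.37, exceeded every cluster named Dynlt1. A grouping by RefSeq position was chosen after the values were seen, with the distal Tmem181b-ps cluster counted as Dynlt1f. Its medians were 0.62 in 3 Tmem181 and 0.30 in 4 Dynlt1 clusters. The Tmem181 members were chosen for their pattern, so this order is descriptive. Since the stretch shares paralogous sequence, signals of its copies may not be separate measurements.

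**Figure D2:**
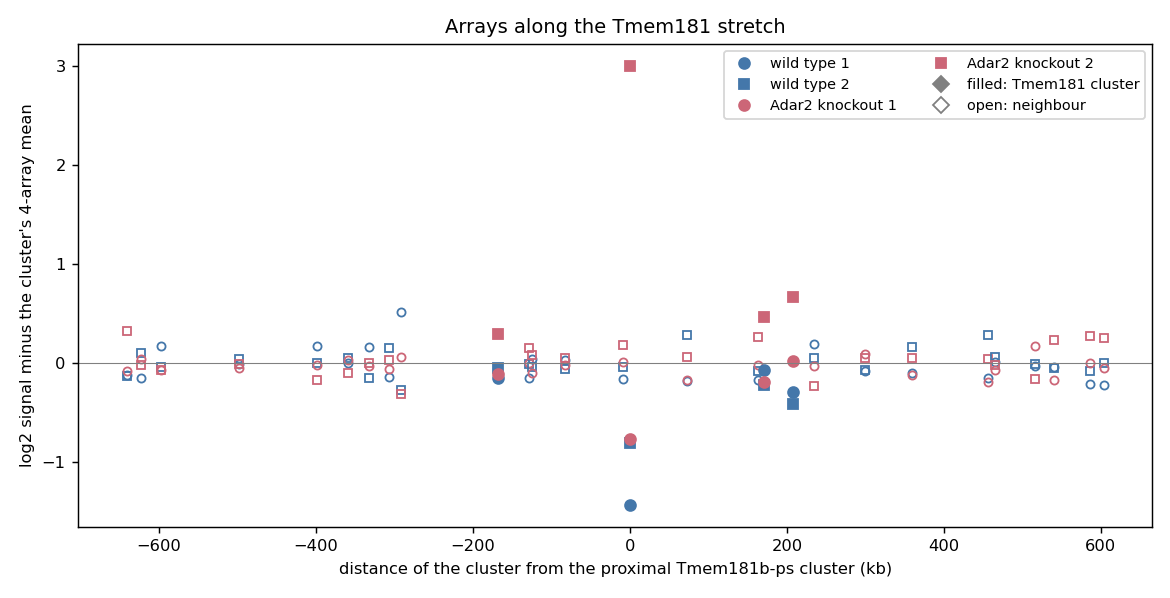
Log2 signal of each array minus the cluster's own 4-array mean, against the distance in kb of the cluster from proximal Tmem181b-ps, for the Tmem181 clusters (filled) and the other clusters within 500 kb of one (open). Colours and shapes give genotype and replicate as in the key, and Adar2 knockout replicate 2 lies above the other arrays at all 4 Tmem181 clusters, by far the most at distance 0.

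The Pisd clusters lay at separate places, and 1 of the 4 varied widely. Pisd-ps3 (17532694, unplaced contig Un_JH584304, 52674 to 59689, minus strand) read 9.98 (replicate 1) and 9.04 (replicate 2) in wild type, and 10.98 (replicate 1) and 10.48 (replicate 2) in the knockout. Both knockout arrays were above both wild-type arrays, and the lowest signal was that of wild-type replicate 2. The genotype means were 9.51 ± 0.67 and 10.73 ± 0.35 (SD, n = 2 each), a difference of 1.22 or 2.33-fold. The wild-type arrays differed from each other by 0.94, or 1.92-fold, a gap that 118 clusters exceeded. The difference was 0.75 without wild-type replicate 2 and 1.69 without wild-type replicate 1, and 1.47 without Adar2 knockout replicate 2. The small nucleolar RNA clusters that follow the same order of arrays are given with the likeness of profiles. Also higher in both knockout arrays were 5 of the 10 pituitary and 4 of the 7 salivary gland clusters, against 17.7% of all clusters. The part of any of these in the difference of Pisd-ps3 was not tested.

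The functional gene Pisd (17447045, chromosome 5, 32736301 to 32785646, minus strand) was level on all arrays. It had 8.11 and 8.17 in wild type and 8.21 and 8.14 in the knockout, a range of 0.10 that was smaller than that of 31468 clusters. Pisd-ps2 (17340435, chromosome 17, 3064318 to 3084183, minus strand) had 8.91 and 8.86 in wild type and 8.90 and 9.04 in the knockout, again within a narrow band. It lies on the same chromosome as the Tmem181 stretch, about 3 Mb away, and Adar2 knockout replicate 2 was its highest array as well, by 0.15 over the mean of the others.

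Pisd-ps1 (17246508, chromosome 11, 3124021 to 3131945, plus strand) had 7.50 and 7.22 in wild type and 7.25 and 6.98 in the knockout. It was the only member with a lower knockout mean, at -0.25, and its groups overlapped. With single arrays left out this ran from -0.385 without wild-type replicate 2 to -0.105 without wild-type replicate 1, and was -0.11 without Adar2 knockout replicate 2. The genotype differences of Pisd and Pisd-ps2 were 0.035 and 0.085, and ran from 0 to 0.07 and from 0.015 to 0.155 with single arrays left out. Pisd-ps1 and Pisd-ps3 both adjoin sequence named Sfi1, a gene for a centrin-binding protein of the centrosome. The Sfi1 cluster beside Pisd-ps1 had 5.48 and 5.71 in wild type and 6.03 and 5.67 in the knockout (limma adjusted p 0.856). The Sfi1 cluster on the contig of Pisd-ps3 had 6.48 and 6.23 in wild type and 6.67 and 6.26 in the knockout (limma adjusted p 0.952). Neither showed the order of arrays of the pseudogene it adjoins.

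Over both families, 3 of 8 clusters spanned at least 2-fold over the 4 arrays, where 1.35% of all clusters did. These were both Tmem181b-ps clusters and Pisd-ps3, with ranges of 4.43, 1.08 and 1.94. The ranges of the remaining 5 were 0.68, 0.52, 0.44, 0.18 and 0.10, beside a median of 0.28 over all clusters. The members were few in probes, with 8 to 13 each against a median of 22, and among clusters with 8 to 13 probes 4.56% spanned at least 2-fold. All 3 wide-ranging members are marked as unique, and 0.787% of unique clusters spanned 2-fold against 4.64% of those marked for cross-hybridization. No member shared all 4 values with another cluster. The groups did not overlap, with the knockout higher, in 3 of 8 members, where this held for 17.7% of all clusters. Either way round they did not overlap in the same 3 of 8, where 34.1% of all clusters did not. The knockout mean was the higher one in 7 of 8, where it was so in 50.8% of all clusters. The pattern entered the choice of the families, so nothing is read from these shares.

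**Figure D3:**
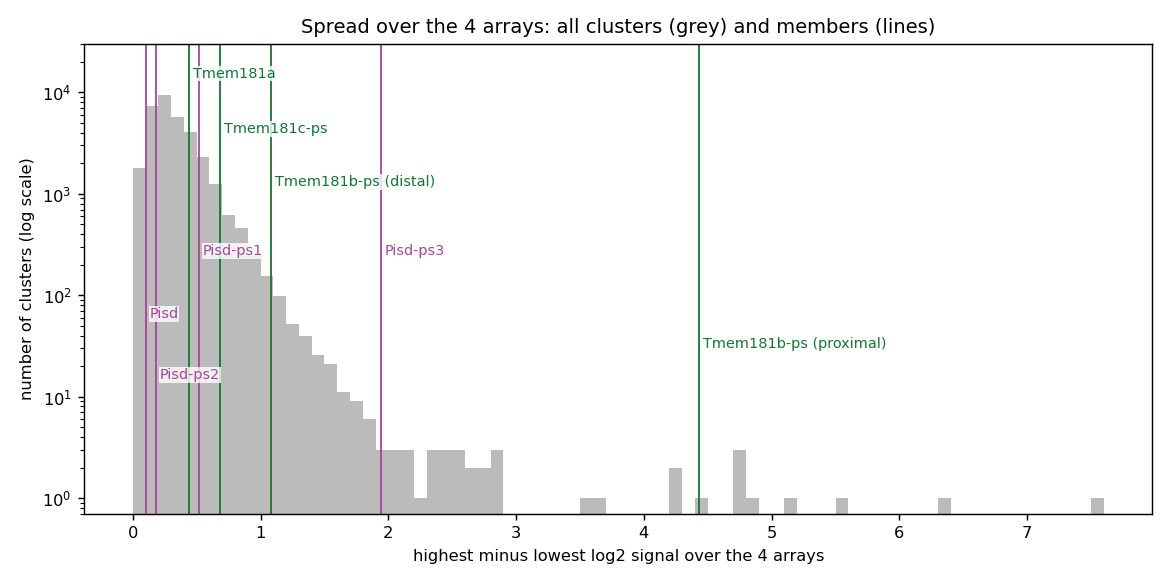
Number of clusters (log scale) by the highest minus the lowest log2 signal over the 4 arrays, for all 33793 clusters in grey, with the 4 Tmem181 clusters as green and the 4 Pisd clusters as purple lines. Pisd sits at 0.10, near the low end, and proximal Tmem181b-ps at 4.43, a range that 8 clusters exceeded.

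The clusters with a symbol outside both families whose profile over the 4 arrays was closest, measured as the Euclidean distance after centring each on its own mean, were looked up for the most uneven member of each family. For proximal Tmem181b-ps the closest was Cdr1, at a distance of 1.77, with 8.14 and 8.82 in wild type and 8.69 and 10.52 in the knockout. Cdr1 lies on the X chromosome and is the locus of a brain circular RNA, which this cluster was not shown to measure. Mir1963, at 2.22, Hbb-b1, a haemoglobin chain, at 2.38, and Snora73b, at 2.53, were further away. All of these had smaller ranges than the member itself. The distal Tmem181b-ps cluster was at 2.74.

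For Pisd-ps3 the 5 closest clusters were nearer, at distances of 0.39 to 0.55. In order, they were 4930481A15Rik, Erdr1, Snora17 on chromosome 2, Snora16a and Taf1d. Snora17 and Snora16a are H/ACA box small nucleolar RNAs, and Snora16a had 9.69 and 9.33 in wild type and 11.21 and 10.80 in the knockout. 4930481A15Rik had 6.16 and 5.26 in wild type and 6.83 and 6.26 in the knockout. With 4 arrays such likeness is a description only.

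Genes around the members, taken by position, were then compared between genotypes. They include the Dynlt1 clusters of the Tmem181 stretch, whose signals may not be separate from those of the members. Of 68 neighbour clusters within 500 kb of a member, 1 had an unadjusted limma p below 0.05, or 1 of 68 where 5.95% of all clusters did. This was Tiam2, an activator of the GTPase Rac, which lies beyond Pisd-ps2. It had 7.93 and 7.77 in wild type and 7.50 and 7.40 in the knockout, a difference of -0.40 (SE 0.12, limma p 0.014, adjusted p 0.834), and an unadjusted p below 0.05 with the knockout lower occurred in 2.31% of all clusters. No neighbour spanned 2-fold over the arrays, where 1.35% of all clusters did, and the largest range was 0.83. The median difference over all 68 was -0.015, beside 0.005 over all clusters. None of the 24 neighbours of the Tmem181 clusters, the 19 of Pisd-ps1, the 14 of Pisd and the 2 of Pisd-ps3 reached an unadjusted limma p below 0.05. That count was 5 of 68 without Adar2 knockout replicate 1 and 0 without wild-type replicate 1.

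The route in which PISD acts was compared through 31 genes of phosphatidylserine and phosphatidylethanolamine synthesis, transfer and remodelling that the array measures with 34 clusters. A single cluster of the 34 reached an unadjusted limma p below 0.05, where 5.95% of all clusters did. It is named Chka, the gene of choline kinase alpha, the first enzyme of the choline route, and lies on the minus strand of chromosome 19 (3798615 to 3852419). It had 5.32 and 5.33 in wild type and 5.07 and 4.96 in the knockout (difference -0.31, SE 0.11, limma p 0.0275, adjusted p 0.834). The other cluster named Chka, on the plus strand (3851773 to 3894369), had 8.59 and 8.47 in wild type and 8.59 and 8.51 in the knockout (difference 0.02, limma adjusted p 0.987), so the 2 clusters of that name on opposite strands disagreed. Differences over the list ran from -0.35 to 0.16. The count was 0 without wild-type replicate 1 or without Adar2 knockout replicate 2, and 3 without wild-type replicate 2.

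The 7 relatives of TMEM181 in the GOLD-domain seven-helix family were measured by 7 clusters. None of the 7 had an unadjusted limma p below 0.05, where 5.95% of all clusters did, and differences ran from -0.16 for Gpr108 to 0.045 for Gpr180. Gpr108 had 9.18 and 9.24 in wild type and 9.12 and 8.98 in the knockout (limma adjusted p 0.870), and Wls, which carries Wnt proteins to the cell surface, had 8.50 and 8.65 in wild type and 8.51 and 8.48 in the knockout (limma adjusted p 0.942).

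Loci known to differ in copy number or intactness between inbred mouse strains were represented by 16 genes in 22 clusters, 5 of them Dynlt1 or Sfi1 clusters given above. The 2 clusters with an unadjusted limma p below 0.05 were both named Erdr1, a pseudoautosomal gene, and both were higher in the knockout, as 3.64% of all clusters were at that threshold. The first had 10.42 and 9.81 in wild type and 11.18 and 11.08 in the knockout (difference 1.02, SE 0.21, limma p 0.00303, adjusted p 0.834). The second had 10.72 and 10.26 in wild type and 11.13 and 11.0 in the knockout (difference 0.58, SE 0.17, limma p 0.0167, adjusted p 0.834). In both, wild-type replicate 2 was lowest, as for Pisd-ps3 and for 22.2% of all clusters. The first Erdr1 cluster was the only one of the 22 to span 2-fold, where 1.35% of all clusters did. Glo1, the glyoxalase gene whose duplication segregates among strains, had 8.95 and 8.83 in wild type and 8.93 and 9.22 in the knockout (limma adjusted p 0.873). Nnt, a mitochondrial transhydrogenase gene that is partly deleted in some strains, had 8.71 and 8.62 in wild type and 8.64 and 8.58 in the knockout. The median difference of the list was 0.16, and 0.065 without Adar2 knockout replicate 2. The count was 1 without wild-type replicate 2 and 1 without Adar2 knockout replicate 1. Without Adar2 knockout replicate 2 it was 0 higher and 1 lower, so that both Erdr1 calls were lost, while their differences without that array were 1.07 and 0.64. The differences were 0.71 and 0.35 without wild-type replicate 2 and 1.32 and 0.81 without wild-type replicate 1.

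**Figure D4:**
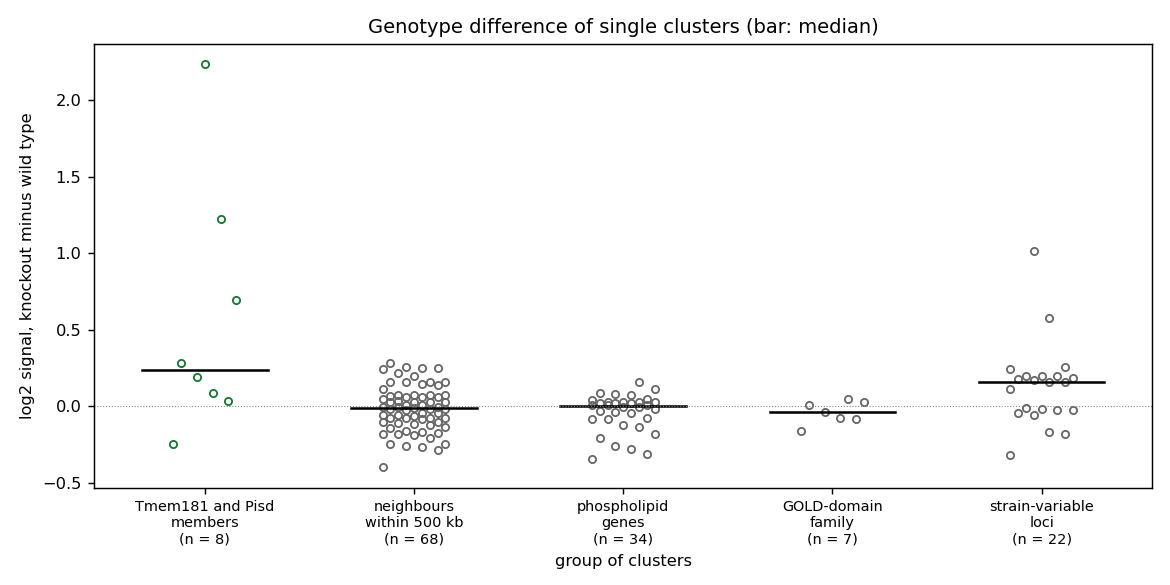
Log2 signal in the knockout minus wild type for each of the 8 members, the 68 neighbour clusters, the 34 phospholipid clusters, the 7 GOLD-domain family clusters and the 22 clusters of strain-variable loci, with the median as a bar. Neighbours and both pathway lists lie within 0.40 of 0, and 2 members and 1 Erdr1 cluster exceed 1.

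No cluster of the table passed an adjusted limma p of 0.05, and 2009 had an unadjusted p below 0.05. The smallest two-sided p of an exact permutation test is 0.33 for groups of 2 arrays. Unplaced or random contigs such as that of Pisd-ps3 carry 94 other clusters. None of them spanned 2-fold, where 1.35% of all clusters did, and their largest range was 0.90.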

How the data were processed

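The deposited values were normalized log2 signals per array for 33793 transcript clusters, written to 2 decimals. Per the labels the processing tools were Affymetrix Expression Console and RMA; versions and genome build are not given in the sources used here. The deposited table also holds the authors' means, ratios, fold changes and p-values, which were not used. Members were matched by symbol. The members and lists were chosen with earlier results of these data known. Genotypes were compared on the deposited values with limma 3.58.1 under R 4.3.3 (a linear model with genotype as sole term, moderated by eBayes, two-sided, Benjamini-Hochberg over all clusters), which was tested on simulated data. No filter was applied. p-values measure only the spread between these arrays, and their number limits the precision. Members received no test. Alternatives were median centring, quantile normalization, a signal filter, unique clusters only, an intensity trend, other windows, the replicate block and leaving out each array. Named were all members, Adarb1, neighbours with an unadjusted p below 0.05 and the Dynlt1 and Sfi1 clusters, up to 5 such genes per list or the 2 with the lowest p, and the 5 nearest profiles, of which 1 is not reported here. Glo1, Nnt, Gpr180 and the second Chka cluster were added after their values were seen. Symbols and promoters came from RefSeq (GRCm38.p6), in which 6 of 8 members overlapped the gene of the same symbol; Pisd-ps3 could not be compared. Reading and plotting used Python 3.11.15, pandas 2.3.3 and matplotlib 3.10.9.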

Additional observations from a re-analysis of the deposited data

How the results depend on the processing

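All alternatives were chosen with earlier results of these data known. The 2 Tmem181 clusters that spanned 2-fold became 0 to 2 with single arrays left out (0 without Adar2 knockout replicate 2, 1 without wild-type replicate 2). The 1 Pisd cluster remained 1 under both scalings and with each array left out. The member with the smallest difference, Pisd, changed sign after median centring. The neighbour count of 1 was 2 after median centring, 2 among clusters above the median signal, 2 with an intensity trend, 0 within 100 kb, 5 within 1 Mb and 0 to 5 with single arrays left out. The phospholipid count of 1 was 2 after median centring, 2 with an intensity trend, 2 among unique clusters and 0 to 3 with single arrays left out. The strain-variable count of 2, both higher, was 3 after median centring (2 higher, 1 lower) and 1 to 2 with single arrays left out (0 higher and 1 lower without Adar2 knockout replicate 2), and the GOLD-domain count was 0 throughout. For none of these was the cause tested. Clusters with an unadjusted p below 0.05 over the table were 1230 higher and 779 lower, 801 and 1229 after median centring, and 896 and 944 after quantile normalization. Per the labels no number marks a shared litter or day, and same-numbered arrays deviated together with an r of only 0.0516 over clusters. Under the replicate block no adjusted p was below 0.05 (0 clusters, with 1693 at an unadjusted p below 0.05), and the neighbour, phospholipid and strain-variable counts were 1, 1 and 2. Leaving out an array assumes that the single one left in its genotype varies as the other genotype does.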
